A study of Mus musculus with 44 samples.

Results

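NRF2, the protein of Nfe2l2, is a transcription factor that switches on antioxidant and detoxifying genes. Nfe2l2 and 9 genes known as its targets, Nqo1, Hmox1, Gclc, Gclm, Gsr, Txnrd1, Srxn1, Me1 and G6pdx, were examined in mouse kidney. The 10 genes were chosen by their place in this pathway, out of 24733 genes with any value above 0, and all 10 had values in every library. Kidney polyA RNA came from 129SV mice aged 8 to 12 weeks, all on night-restricted feeding. The mice were either wild type (WT) or carried a knockout (KO) of Bmal1, the gene Arntl, which encodes a core activator of the circadian clock. The labels name the genotype of the knockout as Bmal -/- and do not describe the allele. Kidneys were taken at zeitgeber times (ZT, hours after lights on) 0, 4, 8, 12, 16 and 20, with 2 libraries, A and B, per genotype and time, which makes 12 groups. The labels do not say whether A and B came from separate animals, so p-values measure only the spread between these libraries. The question that the design poses for these genes is whether their level, and their change over the day, differed between WT and KO.

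As background, NRF2 protein is held low by KEAP1, which hands it to a ubiquitin ligase, and oxidants or electrophiles release it. Freed NRF2 pairs with a small MAF protein and binds antioxidant response elements in DNA. Control is largely at the level of the protein, so the Nfe2l2 transcript level is not a readout of NRF2 activity. Among the targets, Gclc and Gclm encode the catalytic and modifier subunits of glutamate-cysteine ligase, which starts glutathione synthesis, and Gsr encodes glutathione reductase. Txnrd1 encodes cytosolic thioredoxin reductase and Srxn1 sulfiredoxin, which repairs peroxiredoxins. Nqo1 encodes a quinone reductase and Hmox1 the inducible heme oxygenase. Me1, cytosolic malic enzyme, and G6pdx, glucose-6-phosphate dehydrogenase, make the NADPH that the reductases use. In the kidney, proximal tubule cells carry a heavy load of filtered xenobiotics and of oxidative metabolism.

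The element that NRF2 binds was looked for in RefSeq promoter windows (GRCm38.p6, 250 bases before to 50 after a start site, 300 in all), and the matches are shown here because they are the feature that names the group. The table of windows held 10 windows for 7 of the 10 genes, Nfe2l2, Nqo1, Gclm, Txnrd1, Srxn1, Me1 and G6pdx, while Hmox1, Gclc and Gsr had no entry. The core letters TGACNNNGC, read on both strands, were found in 6 of the 10 windows, 1 each for Nfe2l2, Srxn1, Gclm, Me1, Txnrd1 and G6pdx, against 12.39% of all 32851 windows. The E-box letters CACGTG, which the BMAL1 and CLOCK pair can bind and which read the same on both strands, were in 0 of the 10 windows, against 7.15% of all windows. A match describes these letters only and is not evidence of binding, and a window without one says nothing about the factor. The 5 matches that began upstream of their start site are printed 5′ to 3′ on the gene's strand, with the matched core in capitals.
Nfe2l2, chr2:75704865-75704913, minus strand, core beginning 240 bases upstream: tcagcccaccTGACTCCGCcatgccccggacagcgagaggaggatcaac
Gclm, chr3:122245393-122245461, plus strand, core beginning 134 bases upstream: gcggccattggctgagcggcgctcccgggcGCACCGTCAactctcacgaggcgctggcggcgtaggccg
Txnrd1, chr10:82859084-82859152, plus strand, core beginning 92 bases upstream of a start site inside the annotated gene: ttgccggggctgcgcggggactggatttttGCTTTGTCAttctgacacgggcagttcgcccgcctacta
G6pdx, chrX:74428899-74428967, minus strand, core beginning 57 bases upstream: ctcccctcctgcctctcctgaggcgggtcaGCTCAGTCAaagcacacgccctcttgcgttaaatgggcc
Me1, chr9:86695912-86695950, minus strand, core beginning 6 bases upstream and reaching past the start: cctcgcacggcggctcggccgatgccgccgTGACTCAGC
The core lay on the gene's own strand for Nfe2l2 and Me1 and on the opposite strand for Gclm, Txnrd1 and G6pdx. In Srxn1 the match was on the opposite strand and began at position 29 after the start.

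Levels are given in TPM, a transcript abundance scaled for transcript length and to the same total in each library, so genes can be compared with each other and the sequencing depth is unknown. Tests were limma's moderated tests on log2(TPM + 0.1), fitted on the 12874 genes that averaged 1 TPM or more, and a call is a Benjamini-Hochberg adjusted p-value under 0.05. Fold changes of low genes are understated on this scale. The median log2 difference between KO and WT over all genes tested was 0.15 as deposited and 0.002 when libraries were rescaled by the median of their ratios, so the fitted genotype differences of the 10 genes and of the named pathway genes are also given after that scaling, called scaled, and other differences are as deposited.

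Among the libraries, 2 stood apart from their labels. In the library labelled KO ZT4 A, Cry1, a clock repressor, was at 1.03 TPM, inside the WT range of 0.551 to 6.64 TPM. The other 11 KO libraries held 11.5 to 17.8 TPM. The clock gene Nr1d1 was at 23.85 TPM in KO ZT4 A, against 22.03 and 32.95 TPM in WT ZT4. The other 11 KO libraries held at most 3.458 TPM of Nr1d1. In the library labelled KO ZT12 A, the 4 Y-linked transcripts Ddx3y, Uty, Kdm5d and Eif2s3y summed to 3.31 TPM. The other 23 libraries held 48.02 to 69.15 TPM. Most of the 3.31 TPM was Kdm5d, at 2.268 TPM, against 3.743 to 5.421 TPM in the other 23 libraries. Both were kept under their labels, and values without them are given where they change a result that was examined in that way. The rhythms of the other pathway genes, Sod3 among them, and the kidney markers below were not examined without these libraries. Arntl transcripts were still detected in KO, at 4.19 to 6.28 TPM, against 0.295 to 12.9 TPM in WT, so the level of this transcript does not mark the genotype in each library. The kidney markers Lrp2, Slc34a1, Slc5a2, Slc22a6 and Aqp1 of the proximal tubule summed to 2120 to 2476 TPM in WT and 2085 to 2778 TPM in KO, a sum made up mostly of Slc34a1. Within it Slc22a6 fell from a median of 201.2 to 120.7 TPM (log2 difference -0.92, limma adjusted p 0.00024), lowest in KO ZT12 A (32.0 TPM) and at 203.8 TPM in KO ZT4 A, while Slc5a2 (0.45) and, as deposited only, Aqp1 (0.18) were higher. The collecting duct markers Aqp2, Scnn1g, Atp6v1b1 and Slc4a1 were all higher in KO, with a median sum of 202 TPM in WT and 268 TPM in KO. The 3 podocyte markers were higher in KO too, with median sums of 61.3 and 83.9 TPM, as was Slc12a3 of the distal convoluted tubule (log2 difference 0.44). In the thick ascending limb, Slc12a1 was higher (0.72) and Umod lower (-0.36). Of the 5 macrophage markers, 3 (Csf1r, Adgre1 and C1qa) were lower in KO, with median sums of the 5 at 50.2 TPM in WT and 47.4 TPM in KO. The part of these cell types in the differences below was not tested, and in whole kidney fewer cells of a type and less RNA per cell cannot be told apart.

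**Figure D1:**
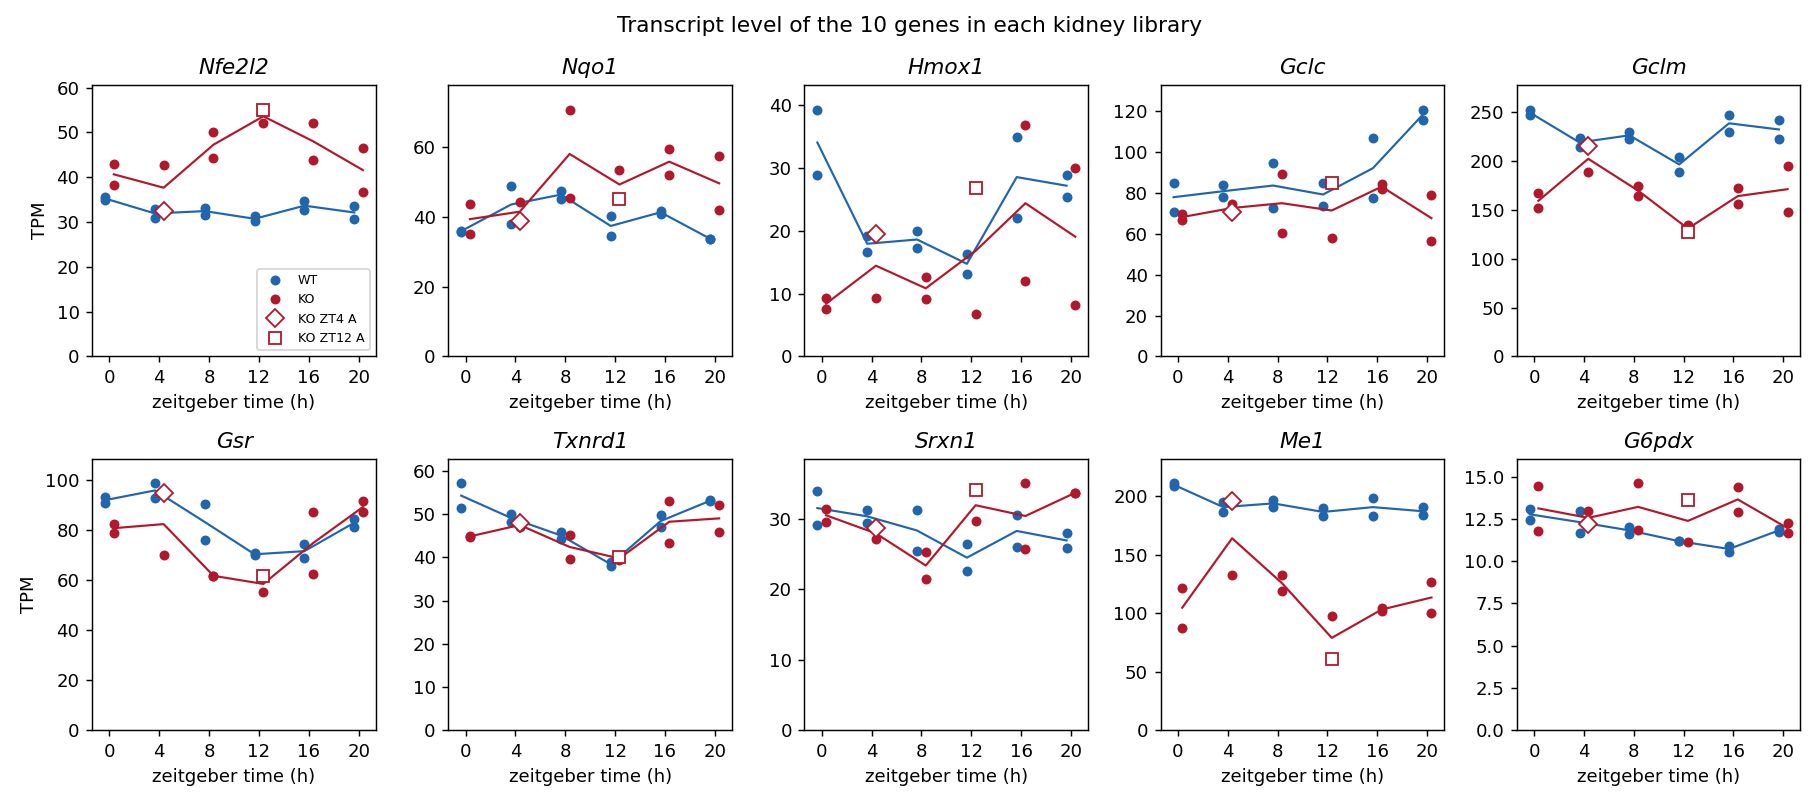
Level of each gene in TPM (vertical axis, from 0) against zeitgeber time in hours, with 1 point per library, lines through the means of the 2 libraries, WT in blue and KO in red. The open diamond is KO ZT4 A and the open square KO ZT12 A. Me1 and Gclm lay lower and Nfe2l2 higher in most KO libraries than in WT.

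The 10 genes did not move together. As deposited, 8 of 10 differed in level between the genotypes once time was accounted for, 3 higher in KO (Nfe2l2, Nqo1 and G6pdx) and 5 lower (Me1, Hmox1, Gclm, Gclc and Gsr). Of all genes tested, 60.9% differed, 50.9% higher and 10% lower in KO, so a call in itself was common and a lower level was not. After median-of-ratios scaling 7 of 10 differed, 1 higher (Nfe2l2) and 6 lower (Me1, Hmox1, Gclm, Gclc, Gsr and Txnrd1), where 44.3% of all genes differed, 22.1% higher and 22.2% lower. The median log2 difference of the 10 genes was -0.12 as deposited, beside 0.15 for all genes tested, and -0.27 after scaling, beside 0.002. Without KO ZT4 A the deposited values gave 3 genes higher and 5 lower, and without both that library and KO ZT12 A they gave 2 higher and 5 lower, since G6pdx no longer passed.

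**Figure D2:**
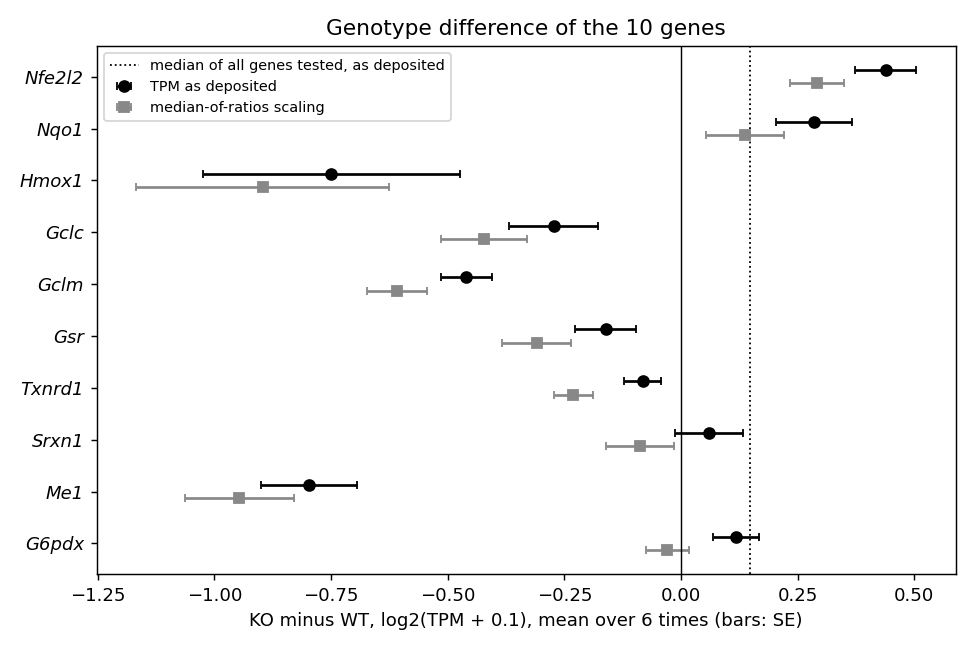
Difference between KO and WT on the log2(TPM + 0.1) scale (horizontal axis) for each gene, averaged over the 6 times, with bars of 1 SE. Black circles use TPM as deposited and grey squares the median-of-ratios scaling, and the dotted line is the median of all genes tested as deposited (0.15). Nfe2l2 lay right of 0 and Me1, Hmox1, Gclm, Gclc and Gsr left of 0 under both.

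Nfe2l2 (ENSMUSG00000015839, GRCm38 chromosome 2, 75675513 to 75704641, minus strand), the gene of the regulator itself, was higher in KO. Its level ran from 30.2 TPM through a median of 32.8 to 35.7 TPM in the 12 WT libraries, and from 32.5 TPM through 44.1 to 55.1 TPM in the 12 KO libraries. The lowest KO value was that of KO ZT4 A, and the other 11 KO libraries, from 36.6 TPM upward, lay above all WT libraries. Over all genes tested, 8.34% had these 11 KO libraries above all WT libraries. The log2 difference was 0.44 (SE 0.07, limma adjusted p 1.64e-05) and 0.29 (SE 0.06, adjusted p 0.000417) after scaling, with KO higher at 6 of 6 times. At ZT12, where the genotypes lay farthest apart, the libraries held 31.3 and 30.2 TPM in WT and 55.1 and 52.1 TPM in KO. At ZT4 they held 30.9 and 33.0 TPM in WT and 32.5 and 42.8 TPM in KO, the 32.5 being KO ZT4 A. The coding transcript Nfe2l2-201 carried a median of 91.7% of the gene's TPM in WT and 90.9% in KO, so the split among transcripts differed little.

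Me1 (ENSMUSG00000032418, chromosome 9, 86581371 to 86695953, minus strand), the malic enzyme that yields NADPH from malate, had the largest fitted drop of the 10 genes with all libraries kept. In some fits with 1 library left out, Hmox1 had the larger drop. These included the fits without KO ZT12 A (-0.90, against -0.73 for Me1) and without KO ZT16 A (-0.86, against -0.79). WT libraries held 182.6, 190.6 and 210.9 TPM at the lowest, median and highest, and KO libraries 60.5, 111.7 and 195.5 TPM. The 195.5 TPM belonged to KO ZT4 A, and the other 11 KO libraries reached at most 132.6 TPM, below every WT library. Such a separation downward was seen in 1.77% of all genes tested. Me1 fell by 0.80 on the log2 scale (SE 0.10, limma adjusted p 4.01e-06) and by 0.95 after scaling (SE 0.12), and was lower in KO at 6 of 6 times. Without KO ZT4 A it fell by 0.86 (adjusted p 1.41e-07). The lowest level, 60.5 TPM, was that of KO ZT12 A, and without that library Me1 fell by 0.73 (adjusted p 2.46e-06). In WT the gene was level over the day, between 182.6 and 210.9 TPM at all times. The coding transcript Me1-201 carried a median of 87.3% of the gene's TPM in WT and 88.5% in KO.

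G6pdx (ENSMUSG00000031400, chromosome X, 74409483 to 74429194, minus strand), the entry enzyme of the pentose phosphate pathway and the other NADPH source among the 10, stayed within a narrow range. WT libraries lay at 10.6, 11.7 and 13.1 TPM at the lowest, median and highest and KO libraries at 11.2, 12.6 and 14.6 TPM, so the genotypes overlapped. Its log2 difference was 0.12 (SE 0.05, limma adjusted p 0.0438) as deposited, below the shift of 0.15 seen in all genes, and -0.03 (adjusted p 0.643) after scaling. When single libraries were left out in turn, 15 of 24 fits lost the call, and the adjusted p rose to as much as 0.086, without KO ZT16 A. The call was kept without WT ZT0 A, ZT4 B, ZT20 A or ZT20 B, and without KO ZT0 A, ZT4 A, ZT8 B, ZT12 B or ZT20 B. Me1 and G6pdx, which supply the same cofactor, thus had opposite signs as deposited, and only the Me1 difference held after scaling.

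Gclm (ENSMUSG00000028124, chromosome 3, 122245557 to 122270732, plus strand), the modifier subunit of glutamate-cysteine ligase, was the most abundant of the 10 in WT. It ran from 189.2 TPM through a median of 226.9 to 252.6 TPM in WT and from 127.6 TPM through 165.7 to 215.7 TPM in KO. In KO, 10 of 12 libraries lay below every WT library, the exceptions being KO ZT4 A at 215.7 TPM and KO ZT20 B at 194.8 TPM. Gclm fell by 0.46 on the log2 scale (SE 0.06, limma adjusted p 1.78e-06) and by 0.61 after scaling (SE 0.06), and was lower at 6 of 6 times. A retained-intron transcript, Gclm-205, was listed with a median of 34.0% of the gene's TPM in WT and 35.1% in KO, and the split among its 6 listed transcripts differed little between genotypes.

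Gclc (ENSMUSG00000032350, chromosome 9, 77754535 to 77794485, plus strand), the catalytic partner of Gclm, fell too, by less. WT libraries held 70.8, 84.3 and 120.8 TPM at the lowest, median and highest and KO libraries 56.5, 72.7 and 89.4 TPM. The genotypes overlapped, with 5 of 12 KO libraries below all WT libraries. Gclc fell by 0.27 on the log2 scale (SE 0.09, limma adjusted p 0.018) and by 0.42 after scaling (adjusted p 0.00105), and was lower at 6 of 6 times. The gap was widest at ZT20, where WT held 115.8 and 120.8 TPM and KO 56.5 and 78.9 TPM, a mean log2 difference of -0.82 as deposited. At the other 5 times the mean log2 difference lay between -0.19 and -0.13.

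Gsr (ENSMUSG00000031584, chromosome 8, 33652523 to 33698163, plus strand), which returns oxidized glutathione to its reduced form, had the smallest drop that passed as deposited. It lay at 68.9, 83.1 and 98.8 TPM in WT at the lowest, median and highest and at 55.3, 74.6 and 94.8 TPM in KO, with wide overlap. Gsr fell by 0.16 on the log2 scale (SE 0.07, limma adjusted p 0.0387), and KO was the lower genotype at 4 of 6 times. When single libraries were left out in turn, 14 of 24 fits lost the call, and the adjusted p rose to as much as 0.0795, without KO ZT4 B. The other 13 were those without either WT library of ZT0, ZT4, ZT8 or ZT12, either KO library of ZT8, or KO ZT0 A, KO ZT12 B or KO ZT16 B. After scaling Gsr fell by 0.31 (SE 0.07, adjusted p 0.00204).

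The reductases of the thioredoxin system changed little as deposited. Txnrd1 (ENSMUSG00000020250, chromosome 10, 82833951 to 82897712, plus strand) lay at 37.9, 49.0 and 57.1 TPM in WT at the lowest, median and highest and at 39.5, 45.1 and 53.2 TPM in KO. Its log2 difference was -0.08 (SE 0.04, limma adjusted p 0.0847), and it passed after scaling at -0.23 (SE 0.04, adjusted p 0.000201). Srxn1 (ENSMUSG00000032802, chromosome 2, 152105516 to 152111376, plus strand) lay at 22.6, 28.6 and 34.0 TPM in WT and at 21.5, 29.7 and 35.0 TPM in KO. Its log2 difference was 0.06 (SE 0.07, adjusted p 0.493) as deposited and -0.09 (SE 0.07, adjusted p 0.345) after scaling, so the sign depended on the scaling and no difference was detectable.

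Nqo1 (ENSMUSG00000003849, chromosome 8, 107388225 to 107403206, minus strand), the quinone reductase often read as a marker of NRF2 activity, was higher in KO as deposited, opposite to Gclm and Me1. WT libraries held 33.7, 39.2 and 49.1 TPM at the lowest, median and highest and KO libraries 35.1, 45.3 and 70.8 TPM. The ranges overlapped, with 5 of 12 KO libraries above all WT libraries. The log2 difference was 0.29 (SE 0.08, limma adjusted p 0.0053), higher in KO at 5 of 6 times. After scaling it was 0.14 (SE 0.08) and did not pass (adjusted p 0.191). The highest value, 70.8 TPM, was that of KO ZT8 A, whose partner KO ZT8 B held 45.4 TPM.

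Hmox1 (ENSMUSG00000005413, chromosome 8, 75093621 to 75100589, plus strand), which opens the heme ring and is strongly inducible, varied most between libraries. WT libraries held 13.2, 21.1 and 39.3 TPM at the lowest, median and highest and KO libraries 6.75, 10.7 and 36.8 TPM. In KO, 8 of 12 libraries lay below all WT libraries, from 6.75 to 12.6 TPM, while KO ZT4 A held 19.5, KO ZT12 A 26.9, KO ZT16 A 36.8 and KO ZT20 B 29.9 TPM. The partners of these 4 libraries at the same times held 9.37, 6.75, 12.0 and 8.19 TPM, so KO pairs taken at the same time could lie far apart. Hmox1 fell by 0.75 on the log2 scale (SE 0.28, limma adjusted p 0.0256) and by 0.90 after scaling (adjusted p 0.012). In mean log2 level KO was lower at 6 of 6 times. At ZT12 that log2 difference was -0.12, while the mean in TPM was higher in KO (16.81) than in WT (14.75). Without KO ZT12 A it fell by 0.90 (adjusted p 0.00468), without KO ZT16 A by 0.86 (adjusted p 0.0103) and without KO ZT4 A by 0.83 (adjusted p 0.0156). At ZT0 the genotypes were farthest apart, with 39.3 and 28.8 TPM in WT and 7.54 and 9.27 TPM in KO. Macrophages are a cell type rich in heme oxygenase. Their 5 markers summed to 47.5 TPM in KO ZT4 A, 51.2 in KO ZT12 A, 47.2 in KO ZT16 A and 40.7 in KO ZT20 B. The partners of these libraries summed to 53.7, 38.2, 38.7 and 42.3 TPM. The library higher in Hmox1 was thus also higher in this sum at ZT12 and ZT16, and lower in it at ZT4 and ZT20. Lyz2 was the largest part of the sum, and single markers could go the other way. Csf1r was lower in the library higher in Hmox1 at ZT12 (10.01 against 11.26 TPM) and ZT16 (9.318 against 9.776 TPM). It was higher there at ZT4 (14.15 against 13.36 TPM), as were C1qa at ZT4 (11.06 against 11.04 TPM) and Lyz2 at ZT20 (20.17 against 19.65 TPM). The other markers went with the sum. The part of macrophages in the Hmox1 spread was not tested.

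The second question was whether these genes followed a 24-hour rhythm, read from a fitted cosine whose peak minus trough, in log2 units, is called the daily range here. In WT, 2 of the 10 passed, Txnrd1 and Gsr, where 13.7% of all genes did. In KO, 2 of the 10 passed, Gsr and Nfe2l2, where 3.64% did. For the difference in rhythm between genotypes 0 of 10 passed by limma, 3 had an unadjusted p under 0.05 (Nfe2l2, Gsr and Srxn1), and 0.629% of all genes passed. A rhythm past the threshold in a single genotype is therefore not shown to be particular to it.

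**Figure D3:**
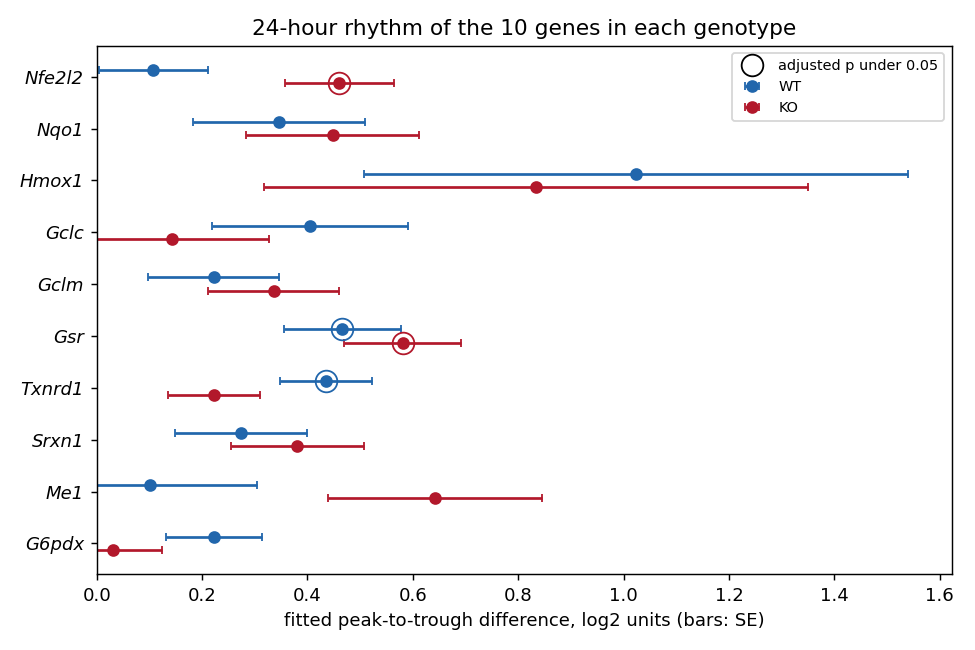
Daily range, the fitted peak minus trough in log2 units (horizontal axis, from 0) of each gene in WT (blue) and KO (red), with bars of 1 SE that stop at 0 on the left, and a ring where the rhythm passed at an adjusted p under 0.05. Rings mark Txnrd1 and Gsr in WT and Gsr and Nfe2l2 in KO.

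Txnrd1 had a daily range of 0.43 in WT (SE 0.09, limma adjusted p 0.00621), with a fitted peak at 22.9 h (SE 0.77). Its WT libraries fell from 57.1 and 51.5 TPM at ZT0 to 37.9 and 38.9 TPM at ZT12 and stood at 53.3 and 53.0 TPM at ZT20. Both ZT12 libraries thus lay below all other WT libraries. In KO the range was 0.22 (SE 0.09, adjusted p 0.258), and the rhythms did not differ detectably (adjusted p 0.561).

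Gsr passed for rhythm in both genotypes in the main fit, though not under every alternative. In WT its daily range was 0.47 (SE 0.11, limma adjusted p 0.02) with a peak at 2.09 h (SE 0.91), from 93.1 and 98.8 TPM at ZT4 down to 70.0 and 70.8 TPM at ZT12. In KO it was 0.58 (SE 0.11, adjusted p 0.0144) with a peak at 22.5 h (SE 0.73), from 87.2 and 91.6 TPM at ZT20 down to 61.8 and 55.3 TPM at ZT12. The pair of libraries with the lowest mean was at ZT12 in both, while the pair with the highest mean was at ZT4 in WT and at ZT20 in KO. The lowest single WT library was WT ZT16 B, at 68.9 TPM. The difference in rhythm did not pass (adjusted p 0.267, and 0.0639 without KO ZT4 A). The WT rhythm of Gsr did not pass after median-of-ratios scaling (adjusted p 0.0992), and its KO rhythm did not pass when KO was fitted alone (adjusted p 0.186). With its most abundant transcript, Gsr-201, in place of the gene, neither rhythm passed (limma adjusted p 0.066 in WT and 0.07 in KO).

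Nfe2l2 did not pass for rhythm in WT, with a daily range of 0.11 (SE 0.10, limma adjusted p 0.736). In KO the range was 0.46 (SE 0.10, adjusted p 0.035) with a peak at 12.8 h (SE 0.86), from 38.3 and 43.05 TPM at ZT0 to 55.1 and 52.1 TPM at ZT12. Without KO ZT12 A the KO rhythm did not pass (adjusted p 0.0809), nor without KO ZT0 A (0.0516), KO ZT12 B (0.0772) or KO ZT16 B (0.0578). When KO was fitted alone the KO rhythm did not pass either (limma adjusted p 0.259). With the coding transcript Nfe2l2-201 in place of the gene, the daily range was 0.25 in WT (adjusted p 0.223) and 0.42 in KO (0.0541). The difference in rhythm between genotypes did not pass (adjusted p 0.148). The genes whose mean log2 levels over the 12 groups were most like those of Nfe2l2 were Id4 (Pearson r 0.98), Gm9747 (0.98) and Uqcrc1 (0.98), a description over groups that are split by genotype.

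The remaining 7 genes did not pass for rhythm in either genotype, and some had wide fitted ranges. Me1 had a daily range of 0.10 in WT (SE 0.20) and of 0.64 in KO (SE 0.20, limma adjusted p 0.14), where its lowest libraries were at ZT12 (60.5 and 97.3 TPM). It passed in KO without KO ZT0 A (adjusted p 0.0262), and its KO range was 0.27 without KO ZT4 A and KO ZT12 A. Srxn1 had a daily range of 0.27 in WT and of 0.38 in KO (adjusted p 0.159), where it passed without KO ZT16 B (0.0486). Hmox1 had a daily range of 1.02 in WT (SE 0.52, adjusted p 0.351), which passed when WT was fitted alone (adjusted p 0.0325), and 0.83 in KO (SE 0.52, adjusted p 0.562). Leaving out 1 library moved that KO range to between 0.37 (without KO ZT16 A) and 1.27 (without KO ZT4 A). The median daily range of the 10 genes was 0.31 in WT and 0.41 in KO, beside 0.25 and 0.21 for all genes tested.

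Other genes of the NRF2 pathway were read from 7 lists holding 70 genes, of which 65 were tested. Of all genes tested, 50.9% were higher and 10% lower in KO as deposited, and 22.1% and 22.2% after median-of-ratios scaling. These shares are the ones to set beside the counts of each list below. Of the 65 list genes, 26 were higher and 19 lower in KO as deposited, and 13 higher and 29 lower after scaling. Without KO ZT4 A and KO ZT12 A they were 27 and 19 as deposited.

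**Figure D4:**
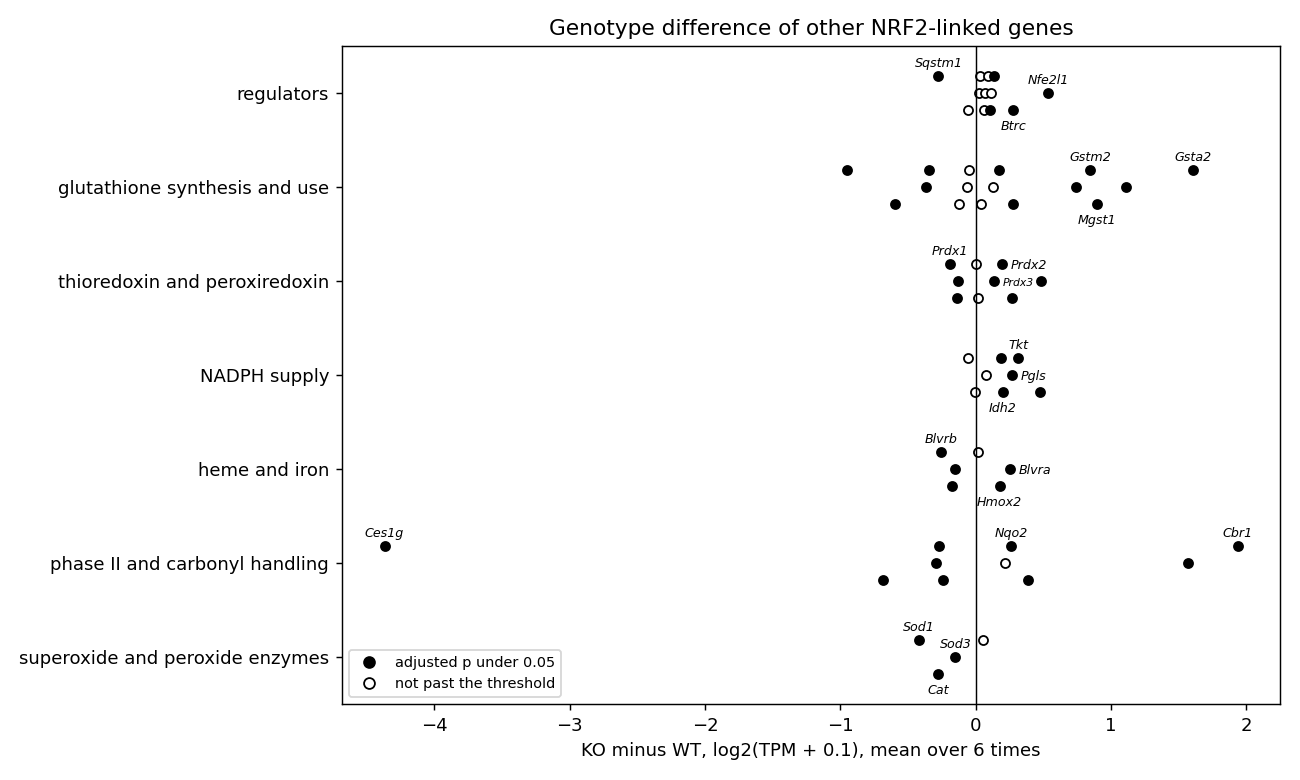
Difference between KO and WT on the log2(TPM + 0.1) scale (horizontal axis) for the 65 tested genes of 7 lists (rows), 1 point per gene, filled where the adjusted p was under 0.05. Names mark up to 3 genes per list with the smallest p. Gsta2, Gstm2 and Mgst1 lay to the right while other genes of the same list lay to the left, Ces1g lay far to the left, and Sod1, Cat and Sod3 to the left of 0.

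Among the 12 regulators of NRF2, 4 were higher and 1 lower in KO as deposited, and 2 and 3 after scaling. Nfe2l1, the paralog of Nfe2l2 that drives proteasome and metal-handling genes, rose from a WT median of 58.5 TPM to a KO median of 85.2 TPM, with 11 of 12 KO libraries above all WT libraries (log2 difference 0.53, SE 0.06, limma adjusted p 1.55e-06, and 0.38 scaled). Sqstm1, the p62 adaptor that binds KEAP1, fell from 305.9 to 257.0 TPM (log2 difference -0.28, SE 0.06, and -0.42 scaled). Btrc, part of a KEAP1-independent ubiquitin ligase for NRF2, rose from 3.16 to 3.86 TPM (log2 difference 0.28, SE 0.05, and 0.13 scaled, adjusted p 0.00871). Keap1 itself, with medians of 12.5 and 12.9 TPM, did not pass, and the sign of its log2 difference turned with the scaling, from 0.07 (SE 0.03, adjusted p 0.0952) to -0.08 scaled (adjusted p 0.0617). Bach1, a repressor at antioxidant response elements, likewise went from 0.03 (SE 0.05, adjusted p 0.592) to -0.11 scaled (adjusted p 0.0513).

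In the list of glutathione synthesis and use, 16 of 19 genes were tested, and 7 were higher and 4 lower in KO (5 and 7 after scaling). Gsta2, a glutathione S-transferase of the alpha class, rose from a WT median of 229.1 TPM to 679.5 TPM (log2 difference 1.61, SE 0.18, limma adjusted p 1.55e-06, and 1.46 scaled). Gstm2, of the mu class, rose from 39.3 to 74.0 TPM (0.84, SE 0.10, and 0.69 scaled), and Mgst1, a membrane-bound relative, from 74.0 to 150.1 TPM (0.89, SE 0.11, and 0.74 scaled). Each of these 3 had 11 of 12 KO libraries above all WT libraries. Gsta3, of the alpha class like Gsta2, fell from a median of 99.0 to 44.9 TPM, with 10 of 12 KO libraries below all WT libraries (log2 difference -0.95, SE 0.12, limma adjusted p 5.07e-06, and -1.10 scaled). Of the 10 transferases tested, 7 were higher and 1 lower as deposited, and 5 were higher and 3 lower scaled. Members of the transferase family share sequence, and how the authors' quantification split reads among them was not tested.

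The phase II and carbonyl list, of 12 genes with 10 tested, held the largest differences, with 4 genes higher and 5 lower in KO under both scalings. Cbr1, a carbonyl reductase, rose from a median of 23.8 TPM in WT to 92.2 TPM in KO (log2 difference 1.94, SE 0.24, limma adjusted p 3.39e-06, and 1.79 scaled), and reached 322.8 TPM in KO ZT12 A. Ces1g, a carboxylesterase, dropped from a median of 15.6 TPM to 0.538 TPM, with all 12 KO libraries below all WT libraries (log2 difference -4.37, SE 0.35, and -4.50 scaled). The highest KO value of Ces1g, 8.04 TPM, was that of KO ZT4 A, and the other 11 reached at most 1.16 TPM. Nqo2, the paralog of Nqo1, rose from 8.20 to 10.0 TPM (0.26, SE 0.05, and 0.11 scaled, limma adjusted p 0.0345).

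Thioredoxin and peroxiredoxin genes moved in both directions, with 4 higher and 3 lower of 9 as deposited and 0 higher and 4 lower after scaling. Prdx2 (log2 difference 0.19, SE 0.04, and 0.04 scaled) and Prdx3 (0.13, SE 0.03), peroxide scavengers of the cytosol and mitochondria, were called higher only as deposited, and Prdx3 changed sign after scaling (-0.01). Prdx1, a known NRF2 target, fell from a median of 825.2 TPM in WT to 730.1 TPM in KO (log2 difference -0.19, SE 0.05, limma adjusted p 0.00181, and -0.34 scaled).

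Of 8 genes of NADPH supply, 5 were higher and 0 lower in KO as deposited, and 2 were higher and 2 lower after scaling. Tkt, transketolase, rose from 61.1 to 76.6 TPM (log2 difference 0.31, SE 0.05) and was still higher after scaling (0.17, limma adjusted p 0.00712). Idh2 (0.20, SE 0.03, and 0.05 scaled) and Pgls (0.27, SE 0.05, and 0.12 scaled), which act in mitochondria and in the pentose phosphate pathway, did not pass after scaling (adjusted p 0.192 and 0.0513). None of these 8 genes was called lower as deposited, where 10% of all genes were, while Me1 fell. After scaling Taldo1 (-0.20, limma adjusted p 0.000494) and Pgd (-0.15, adjusted p 0.00623) were lower too.

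Among 6 heme and iron genes, 2 were higher and 3 lower as deposited, and 0 and 4 after scaling. Blvra (log2 difference 0.25, SE 0.05, and 0.11 scaled), which reduces biliverdin, and Hmox2 (0.18, SE 0.04, and 0.03 scaled), the constitutive heme oxygenase, were higher only as deposited. Hmox2 lay at medians of 46.5 TPM in WT and 52.1 TPM in KO, without the spread between libraries seen in Hmox1. Blvrb, another biliverdin reductase, fell from 17.8 to 14.7 TPM (log2 difference -0.25, SE 0.07, limma adjusted p 0.00436, and -0.40 scaled). Of the 4 superoxide and peroxide enzymes, 3 were lower in KO as deposited and 4 after scaling. Sod1, the cytosolic superoxide dismutase, fell from 809.0 to 591.6 TPM (log2 difference -0.42, SE 0.07, limma adjusted p 3.31e-05, and -0.57 scaled). Cat, catalase, fell from 355.9 to 289.3 TPM (-0.28, SE 0.06, and -0.43 scaled), and Sod3, the extracellular form, from 99.3 to 91.6 TPM (-0.15, SE 0.05, and -0.30 scaled). For rhythm, 8 of the 65 list genes passed in WT and 3 in KO, where 13.7% and 3.64% of all genes did. Sod3 was the only list gene whose rhythm differed between genotypes (limma adjusted p 0.0437), where 0.629% of all genes passed. The rhythms of list genes were not examined with libraries left out, and the highest KO level of Sod3, 103.7 TPM, was that of KO ZT4 A.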

How the data were processed

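PolyA RNA of 24 mouse kidney libraries was used, and the 20 4C-seq libraries of the series, which hold no expression values, were not used here. The authors deposited TPM per transcript, made with kallisto 0.42.4 on mm10/GRCm38 per the submitters' processing notes; the transcript index was not given in the sources used here. Each column summed to between 999999 and 1000001, so depth is unknown and no counting interval was computed. Transcripts were summed to genes by GENCODE M21 identifiers (86119 of 88198 matched, and 1.35% to 2.24% of TPM did not). Groups came from sample titles. limma 3.58.1 in R 4.3.3 (trend and robust options) was run on log2(TPM + 0.1) for 12874 genes. The genotype term was fitted with time as a 6-level factor, and rhythm as a 24-hour cosine and sine per genotype with 1 shared spread. The fits were also run on simulated data, with changes of known size put into independent noise. Those data held no shift over all genes and no library apart from its label, so they cannot speak to either. The 10 genes and the lists were chosen with earlier results of these data known. Named from each list were up to 3 called genes with the smallest genotype p; Keap1, Bach1 and Gsta3 were named after their values were seen. The 12 groups carry replicate letters A and B that no label ties to a shared animal or batch, so no block was used. Alternatives covered pseudocount, filter, scaling, block, variance options and leaving out each library.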

Additional observations from a re-analysis of the deposited data

How the results depend on the processing

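Depth is unknown, and each group held 2 libraries, so when a library was left out the lone partner was assumed to vary like the other groups. The genotype differences of Nfe2l2, Me1, Gclm, Gclc and Hmox1 kept their direction and call under every alternative run; the adjusted p of Hmox1 reached 0.0498. Median-of-ratios scaling left 1 gene of the 10 higher and 1 rhythmic in WT, with 13 pathway genes higher and 29 lower, and reversed Srxn1 (-0.088), G6pdx (-0.029) and Prdx3 (-0.015). With KO ZT4 A also left out, 1 was higher, 13 and 32 pathway genes were called, 124 of all genes differed in rhythm, and Srxn1 (-0.094), G6pdx (-0.031) and Prdx3 (-0.023) reversed. Without the 20 most abundant genes in the total, Srxn1 reversed (-0.026) and 1 of the 10 was rhythmic in WT. With no filter on low values, 1 of the 10 was rhythmic in KO, and over all genes 295 were rhythmic in KO and 43 differed in rhythm, against 468 and 81. WT fitted alone called 4 of the 10 and 2843 of all genes, against 1761, and KO fitted alone 0 and 12. Time as a 6-level factor left 23 of all genes differing in rhythm. With the most abundant transcript of each gene, 1 was rhythmic in WT and 0 in KO. Leaving out both KO ZT4 A and KO ZT12 A was chosen after seeing the data; 1 gene of the 10 was then rhythmic in KO. With scaling as well, 1 was higher, 1 rhythmic in KO, 14 and 29 pathway genes were called, and Srxn1 (-0.11), G6pdx (-0.037) and Prdx3 (-0.0095) reversed. Leaving out 1 library at a time gave 1 to 2 of the 10 rhythmic in KO, and over all genes 272 (without KO ZT0 B) to 626 (without KO ZT0 A) rhythmic in KO and 37 (without WT ZT4 B) to 112 (without KO ZT4 A) differing in rhythm. Txnrd1 passed for genotype without KO ZT16 A (adjusted p 0.0216). The cause of these changes was not tested. The deviations of 66 pairs of A libraries from their group means correlated between -0.323 and 0.338. These pairs mixed both genotypes, so the check cannot exclude a pairing or batch by letter within a genotype. With the replicate block, 8 of the 10 differed by genotype and 7873 of all genes against 7844, and it changed no other count of calls by over 1.5 times.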
